A study of Homo sapiens with 11 samples.

Results

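FLAG-tagged myc was followed in 2 settings of HEK293T cells with FLAG-tagged myc, labelled edit_myc_FLAG and myc_FLAG, were compared by the regions that an anti-FLAG antibody marked in each. The regions come from CUT&RUN, a method in which a nuclease tethered to an antibody releases the DNA fragments next to the bound protein. Those compared lie on chromosomes 1 to 22 and X and touch no region of the mouse or rabbit IgG list, which left 1675 for edit_myc_FLAG and 801 for myc_FLAG, or 2476 of the 5435 regions in the 5 deposited lists. Sharing required an overlap of at least 1 bp with the other FLAG list. By this rule 415 edit_myc_FLAG regions matched 413 myc_FLAG regions, 1260 were in edit_myc_FLAG alone and 388 were in myc_FLAG alone.

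HEK293T cells are a line derived from human embryonic kidney and express SV40 large T antigen. The series has 11 libraries, of which 3 belong to edit_myc_FLAG and 3 to myc_FLAG, both made with a mouse antibody against FLAG. Another 3, labelled endog_myc, used a rabbit antibody against myc, and 1 each used mouse and rabbit IgG. For neither FLAG group do the labels give a treatment, a time, a promoter driving the tagged protein or a clone, and "edit" is not explained. Region lists hold no expression, so the cell line could not be checked against marker genes. Each group has 1 merged list, so there is no replicate spread and no difference between lists was tested. The brackets after percentages are 95% Wilson intervals, which cover counting error only, and neighbouring regions are not independent. Read depth is unknown, and a longer list from deeper sequencing and one from more binding cannot be told apart.

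MYC is a transcription factor of the basic helix-loop-helix leucine zipper family, and it needs its partner MAX to bind DNA. Its preferred site is the E-box, CACGTG, and in growing cells it also occupies many active promoters that lack this site. MXD and MNT proteins compete with it for MAX. FLAG is a short peptide tag, so the antibody against it sees only protein that carries the tag. Another element that recurs just upstream of gene starts is the box bound by NF-Y, a factor of NFYA, NFYB and NFYC subunits.

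The promoters of 6 genes with a FLAG region at the start show which letters lie there. SNRPA and HSPA5 had a region in both lists, ABHD17B and BMAL1 in edit_myc_FLAG alone, and LIN37 and HSP90B1 in myc_FLAG alone. They were picked from the genes named here after their values were seen. Each line holds the 250 bases before the gene start, 5′ to 3′ on the strand of the gene, from RefSeq on GRCh38.p14. Capitals mark the NF-Y box, CCAAT or ATTGG when it lies on the other strand, and the E-box.
SNRPA (chr19:40750953-40751202, plus strand): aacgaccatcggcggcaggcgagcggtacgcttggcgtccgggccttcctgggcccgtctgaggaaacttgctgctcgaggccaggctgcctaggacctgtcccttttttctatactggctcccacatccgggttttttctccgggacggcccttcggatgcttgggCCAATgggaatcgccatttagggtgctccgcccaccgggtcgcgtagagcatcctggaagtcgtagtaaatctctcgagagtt
HSPA5 (chr9:125241344-125241593, minus strand): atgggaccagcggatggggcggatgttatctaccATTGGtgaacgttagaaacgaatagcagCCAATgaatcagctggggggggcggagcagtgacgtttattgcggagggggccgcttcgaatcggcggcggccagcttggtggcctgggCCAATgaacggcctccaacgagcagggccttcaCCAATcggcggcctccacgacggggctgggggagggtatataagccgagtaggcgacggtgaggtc
ABHD17B (chr9:71911194-71911443, minus strand): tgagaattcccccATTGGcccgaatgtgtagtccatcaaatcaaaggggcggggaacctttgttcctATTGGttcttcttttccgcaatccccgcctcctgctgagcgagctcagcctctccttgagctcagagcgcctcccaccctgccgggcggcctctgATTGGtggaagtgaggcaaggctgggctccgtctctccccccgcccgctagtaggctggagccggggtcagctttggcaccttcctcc
BMAL1 (chr11:13277540-13277789, plus strand): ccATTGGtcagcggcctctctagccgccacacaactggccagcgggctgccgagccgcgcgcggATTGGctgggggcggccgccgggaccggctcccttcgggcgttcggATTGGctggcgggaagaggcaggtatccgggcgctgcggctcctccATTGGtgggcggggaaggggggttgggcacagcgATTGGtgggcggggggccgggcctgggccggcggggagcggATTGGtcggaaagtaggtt
LIN37 (chr19:35748326-35748575, plus strand): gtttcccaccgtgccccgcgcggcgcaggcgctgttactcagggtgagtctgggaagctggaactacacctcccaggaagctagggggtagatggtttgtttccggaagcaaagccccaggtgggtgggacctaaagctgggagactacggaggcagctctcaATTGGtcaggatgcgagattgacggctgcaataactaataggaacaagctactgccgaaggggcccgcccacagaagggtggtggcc
HSP90B1 (chr12:103930160-103930409, plus strand): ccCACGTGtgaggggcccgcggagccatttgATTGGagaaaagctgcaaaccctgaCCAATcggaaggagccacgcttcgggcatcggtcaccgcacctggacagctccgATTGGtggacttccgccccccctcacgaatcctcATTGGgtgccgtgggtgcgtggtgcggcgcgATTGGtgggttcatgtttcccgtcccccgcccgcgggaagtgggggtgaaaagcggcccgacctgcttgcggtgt
Every one of the 6 held an NF-Y box, from 1 in SNRPA and LIN37 to 6 in BMAL1. Only HSP90B1 held an E-box. These counts follow from the choice of genes and do not measure how often the letters occur. TOM1 and RBX1, also named here and in myc_FLAG only, held an E-box and no NF-Y box in the 250 bases before the start. Not every box lay inside the called region: the box of SNRPA was outside both FLAG regions, ABHD17B had 2 of 3 and BMAL1 4 of 6 inside, and HSPA5 had 2 of 4 inside the edit_myc_FLAG region and 3 of 4 inside the myc_FLAG region. The 1 box of LIN37 and the 5 boxes and E-box of HSP90B1 were inside. The region's summit lay 241 bp from the start of SNRPA, 208 bp from HSPA5, 171 bp from ABHD17B, 194 bp from BMAL1, 70 bp from LIN37 and 189 bp from HSP90B1, upstream in each case.

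The overlap of the FLAG lists was uneven because their lengths differ. The 415 shared regions were 24.8% of the edit_myc_FLAG list (22.8 to 26.9), and the 413 matched to them were 51.6% of the myc_FLAG list (48.1 to 55.0). Where both lists were held to the 801 regions of highest fold, 266 of each overlapped, or 33.2% (30.0 to 36.5), and 535 of each did not. At that limit the edit_myc_FLAG fold was 5.28 on both sides, at ranks 801 and 802. Only edit_myc_FLAG was shortened by this, and the groups were formed anew. The regions of myc_FLAG alone at equal length therefore include some of the 413 that had a match over the whole lists. The fold is the enrichment over background that the authors' peak caller gave to each region.

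The share did not climb toward the top of the lists. Among the 50 highest regions of each list 16 overlapped (32%), among the 100 highest 32 (32%), among the 200 highest 67 (33.5%) and among the 500 highest 182 (36.4%). Set against the whole other list, 60% of the 100 highest edit_myc_FLAG regions (50.2 to 69.1) and 61% of the 100 highest myc_FLAG regions had a counterpart. High regions of one list were therefore often present in the other, at a lower rank. In 5 equal parts by fold, from highest to lowest, 49.0%, 22.99%, 15.8%, 13.4% and 22.7% of edit_myc_FLAG regions had a counterpart. In myc_FLAG the highest of 5 such parts reached 62.7% and the lowest 46.9%.

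**Figure D1:**
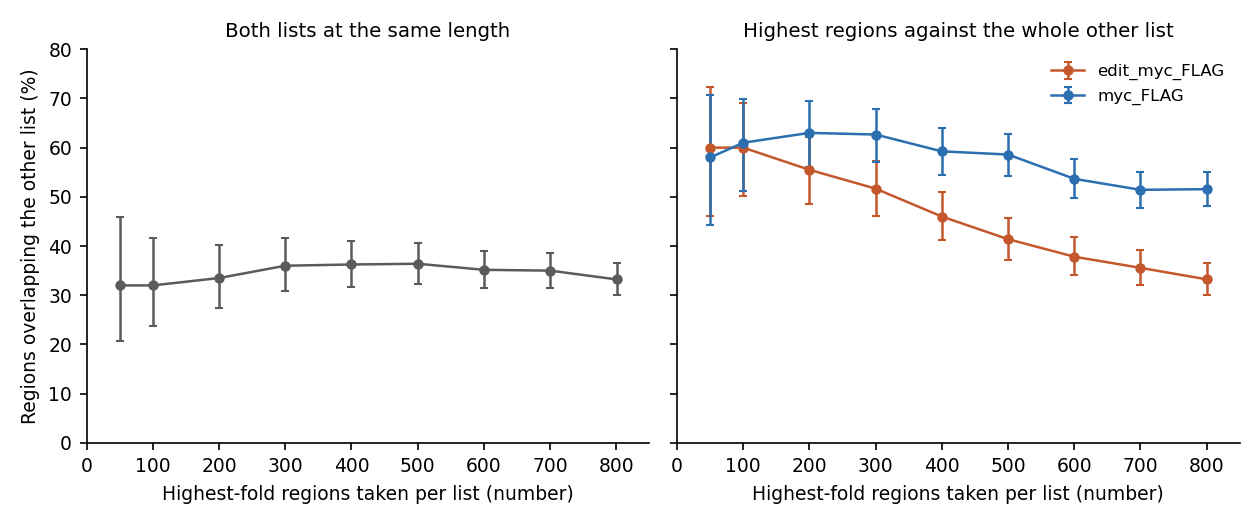
Share of regions overlapping the other FLAG list (percent, vertical axis) against the number of highest-fold regions kept (horizontal axis), with both lists held to that number on the left and each list set against the whole of the other on the right. On the left the share stays between 32% and 36.4%, while on the right edit_myc_FLAG goes from 60% to 33.2% as lower regions are added and myc_FLAG stays above 51%.

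Shared regions were stronger and wider than unshared ones in both lists. Their median fold was 5.89 in edit_myc_FLAG and 5.60 in myc_FLAG, against 5.08 for edit_myc_FLAG alone and 5.03 for myc_FLAG alone. Of the shared regions 287 of 415 had a −log10 q, the caller's adjusted significance, of 5 or more (69.2%), as did 345 of 1260 in edit_myc_FLAG alone (27.4%, 24.99 to 29.9) and 172 of 388 in myc_FLAG alone (44.3%, 39.5 to 49.3). The median width was 281 bp for shared edit_myc_FLAG regions and 219 bp for those in edit_myc_FLAG alone.

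The members closest to the limit of the rule were as follows. Shared regions of chromosome 3, from 42804359 to 42804556 in edit_myc_FLAG and from 42804550 to 42804746 in myc_FLAG, overlapped by 7 bp and had folds of 5.56 and 4.23. Regions of chromosome 17, from 117523 to 117983 in edit_myc_FLAG and from 117267 to 117455 in myc_FLAG, lay 67 bp apart and had folds of 9.62 and 4.18. Few unshared regions were near misses: 34 of those in edit_myc_FLAG alone and 29 of those in myc_FLAG alone lay within 1000 bp of a region of the other list. Within 10000 bp the counts were 118 (9.37%) and 109 (28.1%).

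Where both lists had a region, the overlap that formed the pair also limits how far apart the summits can lie. No baseline for that distance was computed. In the 415 pairs the median distance between summits was 44 bp, and 217 pairs were within 50 bp (52.3%). The 115 pairs in gene-poor DNA, over 100000 bp from any annotated gene, had a median of 15 bp. The 173 pairs at gene starts, with a summit within 1000 bp of the start of a protein-coding gene, had a median of 71 bp. The fold was within 1.5 times between lists in 361 pairs, and it was the higher in edit_myc_FLAG in 231 of 415. At gene starts 151 of 173 pairs were within 1.5 times, and in gene-poor DNA 101 of 115. Folds of the pairs spanned little, with quartiles of 4.82 and 7.19 in edit_myc_FLAG and 4.65 and 6.95 in myc_FLAG. Many pairs can thus fall within 1.5 times without a relation between the lists, and no baseline was computed. Pearson's r of the log2 folds was 0.737 and Spearman's rho 0.631 over the 415 pairs, as a description, since the points share 2 merged sets of libraries. The relation was looser at gene starts (r 0.347, rho 0.296, 173 pairs) than in gene-poor DNA (r 0.798, rho 0.771, 115 pairs). The folds at gene starts also spanned less, from 3.09 to 13.003 in edit_myc_FLAG, against 2.52 to 19.2 in gene-poor DNA.

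**Figure D2:**
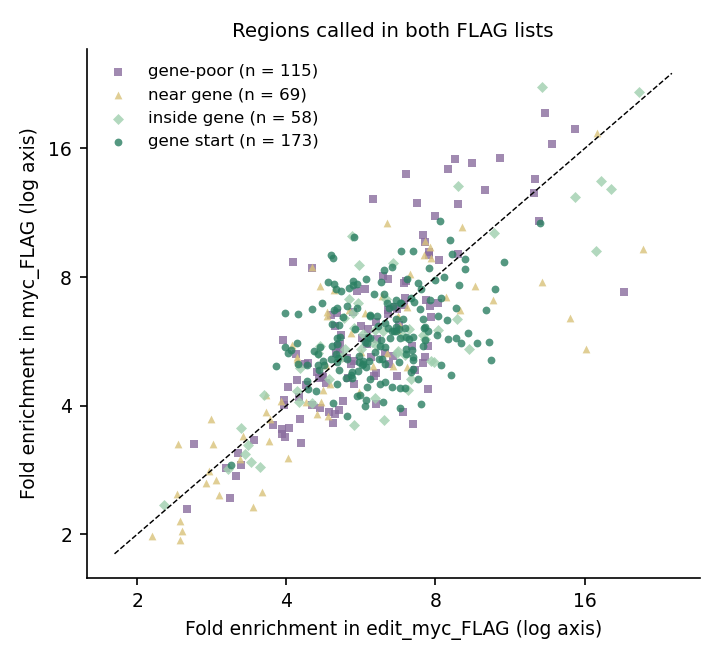
Fold in edit_myc_FLAG (horizontal, log axis) against fold in myc_FLAG (vertical, log axis) for the 415 pairs of shared regions, with points coloured by location. Of the 415 pairs 361 lie within 1.5 times, among folds that mostly span little, and the gene-start pairs lack the highest folds that some gene-poor pairs reach.

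The groups differed in where their regions lay, with shared regions placed by their edit_myc_FLAG coordinates. Away from gene starts a region was inside a gene, near one (within 100000 bp) or gene-poor. At gene starts were 557 of 1260 regions in edit_myc_FLAG alone (44.2%, 41.5 to 47.0) and 173 of 415 shared regions (41.7%, 37.0 to 46.5), but 84 of 388 in myc_FLAG alone (21.6%, 17.8 to 26.0). Gene-poor DNA held 175 of the regions in myc_FLAG alone (45.1%, 40.2 to 50.1), 115 of the shared (27.7%, 23.6 to 32.2) and 111 of those in edit_myc_FLAG alone (8.81%, 7.4 to 10.5). With 801 regions in each list the gene-start shares were 50.8% for edit_myc_FLAG alone, 48.5% for shared and 23.9% for myc_FLAG alone. The gene-poor shares were then 9.53%, 25.6% and 41.5%. The lists still differed in strength there, with a lowest fold of 5.28 in edit_myc_FLAG and 1.94 in myc_FLAG. From highest to lowest fold, 5 equal parts of myc_FLAG had 27.3%, 46.25%, 43.1%, 33.1% and 10.6% of regions at gene starts. Location was not compared at matched fold.

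**Figure D3:**
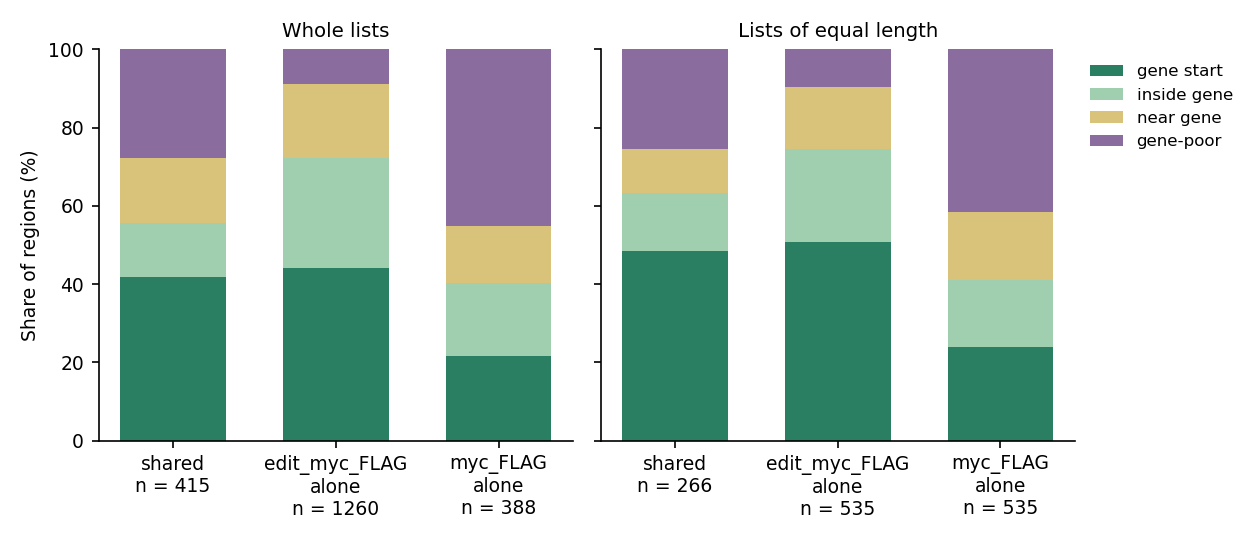
Share of regions (percent, stacked) at gene starts, inside genes, near genes and in gene-poor DNA for the shared regions, edit_myc_FLAG alone and myc_FLAG alone, for whole lists on the left and lists of equal length on the right. Gene-poor DNA takes 45.1% of myc_FLAG alone and 8.81% of edit_myc_FLAG alone over the whole lists.

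Most gene-poor regions lay in 1 stretch of each chromosome, the longest without an annotated gene, a measure added after the values were seen. On several chromosomes this stretch spans the centromere, where satellite repeats are known to lie, and the uniqueness of read placement there was not examined. It held 104 of the 115 shared gene-poor regions, 101 of 111 in edit_myc_FLAG alone and 166 of 175 in myc_FLAG alone. On chromosome 1, from 121571889 to 143299517, it held 57 shared regions, 66 in edit_myc_FLAG alone and 74 in myc_FLAG alone. On chromosomes 1 to 22 and X, the IgG lists used as a filter had 119 of 230 (mouse) and 98 of 228 (rabbit) regions in these stretches. The endog_myc list, without a filter, had 438 of 1143. After the filter, 231 of 1675 edit_myc_FLAG regions (13.8%) and 287 of 801 myc_FLAG regions (35.8%) lay in the stretches. Outside them the gene-start share of the whole lists was 730 of 1444 in edit_myc_FLAG (50.6%, 48.0 to 53.1) and 257 of 514 in myc_FLAG (50%, 45.7 to 54.3). With 514 regions in each list it was 308 in edit_myc_FLAG (59.9%, 55.6 to 64.1) against the same 257 in myc_FLAG. By group, outside the stretches, 58.1% of shared regions were at gene starts (52.4 to 63.5), 48.6% of those in edit_myc_FLAG alone (45.7 to 51.5) and 38.7% of those in myc_FLAG alone (32.5 to 45.3). The shared regions, below edit_myc_FLAG alone over the whole lists, thus stood above it here. With 514 regions in each list the shares were 64.3% (56.9 to 71.1), 57.7% (52.4 to 62.8) and 42.9% (37.7 to 48.1).

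The endog_myc list, made with another antibody, was not used in forming the groups, and it overlapped them to different degrees. It met 441 of the 1675 edit_myc_FLAG regions (26.3%) and 395 of the 801 myc_FLAG regions (49.3%), or 35.3% of edit_myc_FLAG at equal length. Of the shared regions 278 overlapped it (67.0%, 62.3 to 71.3), of those in myc_FLAG alone 116 (29.9%, 25.6 to 34.6) and of those in edit_myc_FLAG alone 163 (12.9%, 11.2 to 14.9). At equal length the shares were 71.8% (66.1 to 76.9), 38.1% (34.1 to 42.3) and 17.2% (14.2 to 20.6). There myc_FLAG alone includes regions whose match in edit_myc_FLAG fell below the cut. At gene starts only, again at equal length, they were 70.5%, 33.6% (26.0 to 42.1) and 18.4% (14.2 to 23.4). Inside genes, at equal length, they were 59.0%, 25.3% and 14.3%, where the intervals of the last 2 overlap. Without the gene-free stretches, at equal length, they were 73.1%, 35.0% and 19.0%. The order of the 3 was therefore the same in each of these subsets. The endog_myc overlap also varied with fold. In 5 equal parts of edit_myc_FLAG by fold, from highest to lowest, it was 49.3%, 27.2%, 16.4%, 15.2% and 23.6%. In the same parts of myc_FLAG it was 70.8%, 53.1%, 46.25%, 29.4% and 46.9%. No subset was matched on fold, so the part of strength in this order was not tested.

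**Figure D4:**
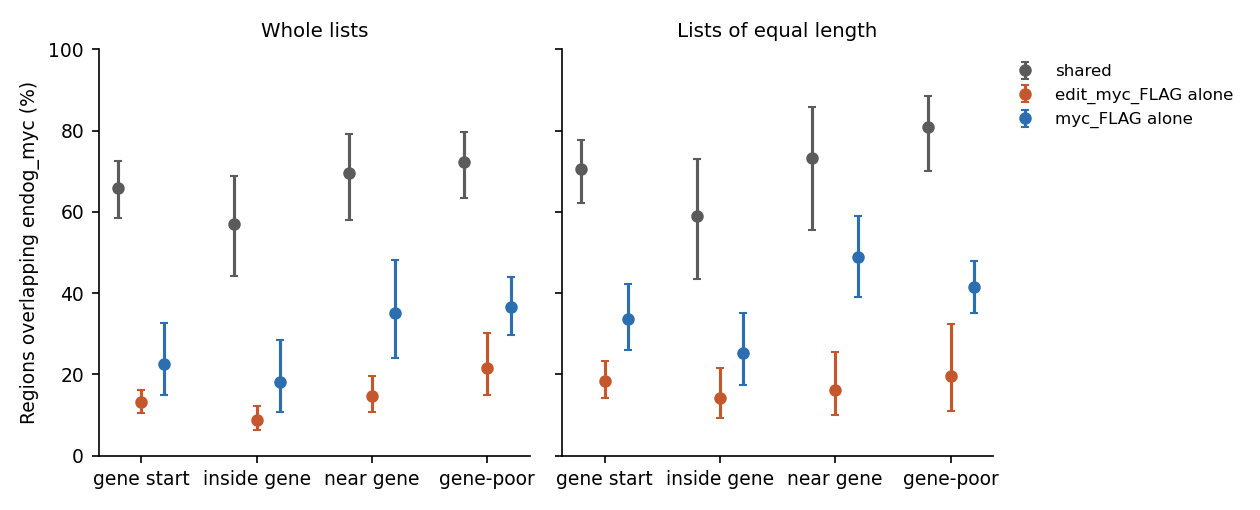
Share of regions overlapping the endog_myc list (percent, vertical axis) at each location (horizontal axis), for shared regions, edit_myc_FLAG alone and myc_FLAG alone, over whole lists (left) and at equal length (right), with 95% Wilson intervals as bars. At every location the shared regions stand highest and edit_myc_FLAG alone lowest, for example 80.9%, 41.4% and 19.6% for shared, myc_FLAG alone and edit_myc_FLAG alone in gene-poor DNA at equal length.

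The highest regions away from gene starts included several with no gene beneath them. A shared region of chromosome 5 from 178585535 to 178585741, inside COL23A1, which encodes a transmembrane collagen, had folds of 20.6 in edit_myc_FLAG and 21.7 in myc_FLAG and overlapped endog_myc. A shared region of chromosome 10 from 128464372 to 128464616 had 19.2 and 7.37 and did not overlap endog_myc. The highest in edit_myc_FLAG alone, on chromosome 10 from 39967531 to 39967697, had a fold of 20.3 and lay in the gene-free stretch. The highest in myc_FLAG alone, on chromosome 2 from 87824890 to 87825189, had a fold of 27.4. It overlapped RGPD2, a member of a family of near-identical genes, and MTATP8P2 and MTATP6P28, nuclear pseudogene copies of mitochondrial genes, so its reads may not belong to this place.

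At the level of genes, 863 of 19974 protein-coding genes had an edit_myc_FLAG region within 1000 bp of the start (4.32%) and 318 a myc_FLAG region (1.59%). Of these 218 were in both (1.09%), 645 in edit_myc_FLAG only (3.23%) and 100 in myc_FLAG only (0.501%). At equal length 478 genes had an edit_myc_FLAG region (2.39%) and 318 a myc_FLAG region. The RefSeq table gives no exons, so exon, intron and UTR were not told apart, and where it gives no start either end of the gene was used.

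Among the genes in both lists, 15 are named by the worse of their 2 within-list fold ranks, which is a description of strength and no test. Of these, 14 also overlapped an endog_myc region, and the edit_myc_FLAG fold was the higher in 10. Over all 173 shared regions at gene starts, 114 overlapped endog_myc (65.9%), and the edit_myc_FLAG fold was the higher in 103 of the 173 pairs. The first by this rank, LOC124903130 on chromosome 13, is an uncharacterised locus with folds of 13.003 in edit_myc_FLAG and 10.7 in myc_FLAG. SNRPA, a protein of the U1 snRNP, had 8.55 and 9.78 (chromosome 19, 40750635 to 40751108), in a region also at the start of ACTMAP. P4HB, which forms disulfide bonds in secretory proteins, had 8.66 and 9.04 (chromosome 17, 81860637 to 81860897) and 10.2 in endog_myc.

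HNRNPUL1, an RNA-binding protein, had 9.17 and 8.83, and CAMTA1, a calmodulin-binding transcription activator, had 10.99 and 8.70. SKA2, a part of the spindle and kinetochore complex, had 8.21 and 7.13 in a region shared with PRR11. USP16, a deubiquitinase of histone H2A, had 7.98 and 7.88. RPS6KA5, a stress-activated kinase that acts on chromatin, had 8.33 and 7.99 in a region also at DGLUCY. RAB3A, a small GTPase of synaptic vesicles, had 7.39 and 7.75. ADI1, which acts in the methionine salvage pathway, had 9.18 and 8.34, and SWSAP1, a recombination factor, had 8.16 and 10.8. MYPOP, LIAT1 and MPHOSPH9 had edit_myc_FLAG folds of 7.81, 10.5 and 7.47 and myc_FLAG folds of 7.08, 7.49 and 7.51. The MPHOSPH9 region was also at MTRFR. ATF7, a basic leucine zipper factor, had 8.94 and 7.68 and was the only one of the 15 without an endog_myc overlap.

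Of the 550 genes nearest to a start region in edit_myc_FLAG alone, 72 also overlapped endog_myc. The 12 highest include AKAP8L, a nuclear anchoring protein, with a fold of 10.3. Another is ABHD17B, a depalmitoylating enzyme, with 9.85 (chromosome 9, 71911303 to 71911513, also at C9orf85). LSM1, of the ring that promotes mRNA decapping, had 8.74 in a region shared with BAG4. LCA5, a ciliary protein, had 8.48 in a region shared with SH3BGRL2. BMAL1, the clock activator that pairs with CLOCK, had 8.43 (chromosome 11, 13277477 to 13277732) and an endog_myc fold of 4.88. CREB3L2, a membrane-anchored transcription factor of the endoplasmic reticulum, had 8.19 and 6.33. HMGN1, a nucleosome-binding protein, had 7.84 in each.

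The rest of the 12 were TULP3, of ciliary trafficking, with 7.68, PPP2R5A, a regulatory subunit of phosphatase 2A, with 7.66, and SLC2A8, a glucose transporter, with 7.62. FAM86B2, of a family with near-identical copies, had 8.16, and LOC124905351 had 10.02, where the link of gene to position is uncertain because the table places it at a chromosome end. Next in fold among those that overlapped endog_myc were IBTK with 7.41, CEBPG, a basic leucine zipper factor, with 7.40, and NFYA, a subunit of NF-Y, with 7.37 (chromosome 6, 41072751 to 41073047, also at OARD1). Their endog_myc folds were 4.68, 6.29 and 4.74.

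Of the 80 genes nearest to a start region in myc_FLAG alone, 18 also overlapped endog_myc. TOM1, an endosomal adaptor, was the highest with a fold of 9.98 (chromosome 22, 35299868 to 35300228) and an endog_myc fold of 5.56. LIN37, of the MuvB core that represses cell cycle genes, had 8.25 and no endog_myc region. HSP90B1, the HSP90 of the endoplasmic reticulum, had 7.01, CCNF, cyclin F, had 6.84 and NEMP1, a nuclear envelope protein, had 7.11, each without an endog_myc region. RBX1, the RING subunit of cullin ubiquitin ligases, had 6.66 with an endog_myc fold of 5.99, and DCAF15, a substrate receptor of such a ligase, had 6.61 and 6.87. ZNF678, KIAA0319L and SHKBP1 had 7.75, 7.05 and 6.63 and also overlapped endog_myc. CHCHD6, of the mitochondrial cristae complex, and SOCS5, of the cytokine suppressor family, had 7.24 and 6.66 without an endog_myc region. The regions of DCAF15 and KIAA0319L were also at PODNL1 and NCDN.

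The gene lists are set beside the 4.32% of all genes in edit_myc_FLAG and the 1.59% in myc_FLAG, which include genes that may not be expressed. Lists and members were chosen with earlier results of these data known. A share above that of all genes may therefore come from this choice and is a description only. Of 87 splicing and mRNA processing genes, 12 had an edit_myc_FLAG region (13.8%, 8.07 to 22.6) and 6 a myc_FLAG region (6.90%, 3.20 to 14.2). The 5 in both were SNRPA, SNRPD2 (5.29 and 4.65), HNRNPA0 (10.2 and 5.63), HNRNPC (7.20 and 9.19) and HNRNPA1 (5.59 and 4.81, in a region nearer CBX5). In edit_myc_FLAG only were SNRPF (5.31), SNRNP70 (6.24), SRSF4 (5.55), HNRNPR (6.70), LSM1, LSM4 (5.75) and NUDT21 (5.67). The NUDT21 region lay nearer OGFOD1, and that of SNRPD2 was also at QPCTL. In myc_FLAG only was SON, a protein of nuclear speckles, with 6.54, at the start it shares with GART.

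Of 32 chaperone genes, 5 had an edit_myc_FLAG region (15.6%, 6.86 to 31.8) and 4 a myc_FLAG region (12.5%, 4.97 to 28.1). HSPA5, the HSP70 of the endoplasmic reticulum, had folds of 7.17 and 5.40, and P4HB was also in both. HSPA1B had 4.85 and 7.78, with a near-identical copy in HSPA1A, so its position is uncertain. HSPA8, the constitutive HSP70, had 6.15 and DNAJB1, an HSP40 co-chaperone, 5.34 in edit_myc_FLAG only, and HSP90B1 was in myc_FLAG only.

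Of 16 genes of the circadian clock and its output, 4 had an edit_myc_FLAG region (25%, 10.2 to 49.5) and 1 a myc_FLAG region. TEF, a clock-controlled transcription factor, was in both with 6.65 and 6.13. PER3 (7.17) and CRY1 (6.86), repressors of the clock, and BMAL1 were in edit_myc_FLAG only. Of 13 genes of the MAX network, MXD1 (5.97) and MXD3 (4.50), which compete with MYC for MAX, had an edit_myc_FLAG region and none had a myc_FLAG region, which allows a share of up to 23.1%.

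Growth and metabolism lists ranged from none to a share above that of all genes. Of 63 ribosome biogenesis genes, NOP56 (4.82), UTP18 (6.31), RRP1B (4.95) and LTV1 (4.71) had an edit_myc_FLAG region (6.35%) and none a myc_FLAG region (up to 4.76% allowed). The UTP18 region was also at MBTD1. Of 78 cytosolic ribosomal protein genes only RPS14 had an edit_myc_FLAG region, at 4.08. Of 60 translation factor and tRNA synthetase genes, 4 had an edit_myc_FLAG region (6.67%, 2.62 to 15.9) and 1 a myc_FLAG region (1.67%). EIF4A1 (6.10), EIF5 (5.06) and ETF1 (5.36) were in edit_myc_FLAG only and AARS1, alanyl-tRNA synthetase, in both with 7.01 and 7.90. Of 37 nucleotide, folate and polyamine synthesis genes, 3 had a region in each list (8.11%, 2.80 to 21.3). CTPS1, CTP synthase, had 5.91 and 6.48 and MTHFD1, a folate enzyme, 7.20 and 5.19. RRM2, of ribonucleotide reductase, had 5.36 in edit_myc_FLAG only, and GART, a purine synthesis enzyme, had 6.54 in myc_FLAG only, in the region nearer SON. None of 20 glycolysis genes had a region in either list, which allows up to 15%.

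The other lists were close to the share of all genes or had small counts. Of 74 transcription and chromatin genes, 6 had an edit_myc_FLAG region (8.11%, 3.77 to 16.6): GTF2F1 (5.78), CCNT2 (5.07), HDAC1 (5.49), SIN3A (4.23), POLR2I and BRD2. POLR2I had 6.11 and 6.13, in a region nearer TBCB, and BRD2 had 5.36 and 4.79 in regions that do not overlap. Of 72 cell cycle and replication genes, GMNN, geminin, was in both (4.74 and 5.10), PCNA (4.59), POLD1 (5.36) and LIN52 (6.48) were in edit_myc_FLAG only and LIN37 in myc_FLAG only. The LIN52 region lay nearer ALDH6A1. Of 65 histone genes, H2AZ2 (5.98) and H3-3B (5.71) were in edit_myc_FLAG only. Of 87 genes of mitochondrial translation, MRPS9 was in edit_myc_FLAG only and MRPS12 and MTRFR in both, each of the latter in a region nearer another gene. The control lists of 72 olfactory receptor, 40 liver and 36 muscle genes had no region in either list.

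The E-box was found in few of these promoters. The window searched was 300 bases, 250 before and 50 after the start, on both strands. Of 22132 windows of protein-coding genes 8.34% held CACGTG, and 10.2% of the windows with at least 10 CpG did. It was in 26 of 199 windows of genes in both lists (13.1%, 9.07 to 18.5), 59 of 551 in edit_myc_FLAG only (10.7%, 8.39 to 13.6) and 10 of 84 in myc_FLAG only (11.9%, 6.60 to 20.5). The endog_myc share was 26 of 319 (8.15%).

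The NF-Y box was far more frequent. It was in 166 of the 199 windows of genes in both lists (83.4%, 77.6 to 87.9), in 60 of 84 in myc_FLAG only (71.4%, 61.0 to 79.99) and in 339 of 551 in edit_myc_FLAG only (61.5%, 57.4 to 65.5), against 34.6% of all windows and 33.4% of the CpG-rich ones. More than 1 box was present in 64.3%, 52.4% and 35.0% of these, against 11.4% of all windows. At equal length the shares were 84.8%, 75.4% and 69.3%. The regions at gene starts alone were also split into 5 equal parts by fold, taking the window of the nearest gene of each. From highest to lowest, 84.1%, 75.6%, 62.4%, 67.2% and 53.2% of the edit_myc_FLAG windows held the NF-Y box. In the same parts of the myc_FLAG regions at gene starts the shares were 86%, 85.1%, 86.7%, 71.7% and 79.1%. Genes with an endog_myc region held it in 261 of 319 windows (81.8%). So did the few gene starts of the IgG lists, 16 of 16 windows in rabbit and 3 of 3 in mouse. The part of the background in this result was not tested.

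In windows that held both a summit and a box, the nearest box was a median of 34 bp from the summit for genes in both lists (86 windows), 32.5 bp for edit_myc_FLAG only (210 windows) and 35 bp for myc_FLAG only (41 windows). No distance for other windows was computed, many windows hold more than 1 box, and the 25 bases from position -75 hold 18.2% of the boxes of all windows, so these distances are given as values only. The median position of the summit from the start, in bp with upstream negative, was -144 for genes in both lists, -81 for edit_myc_FLAG only and -97.5 for myc_FLAG only. The windows were also rich in G and C, with medians of 64.7%, 67.7% and 66.0% against 62.3% over all windows. The GC box GGGCGG was in 79.4%, 82.0% and 83.3% of them, against 56.3% of all. At least 10 CpG were in 98.995%, 98.5% and 97.6% of these windows, against 70.1% of all. GGGCGG itself holds a CpG, and its share among CpG-rich windows was not computed. The last letters of ATTGG and the first of GGGCGG can be the same bases, so the counts of the NF-Y box and the GC box are not fully separate.

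The other motifs were searched in the same way, also without a share among CpG-rich windows. Shares are given for genes in both lists, in edit_myc_FLAG only and in myc_FLAG only, in that order. The E-box variant CACGCG, bound less tightly, was in 22.1%, 19.6% and 20.2%, against 14.2% of all windows, and the variant CATGTG in 5.53%, 5.26% and 4.76%, against 8.93%. The ETS motif CCGGAAGT was in 3.52%, 5.63% and 3.57%, against 5.35%. The CREB site TGACGTCA was in 0.503%, 3.99% and 1.19%, against 2.26%. The AP-1 site TGANTCA was in 3.02%, 3.09% and 3.57%, against 6.15%. The palindromic NRF1 motif was in 1.005%, 3.45% and 2.38%, against 1.505%, and the YY1 motif in 1.51%, 0.907% and 1.19%, against 1.18%. A match of letters is a description, and no match says only that these letters are not in the window.

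**Figure D5:**
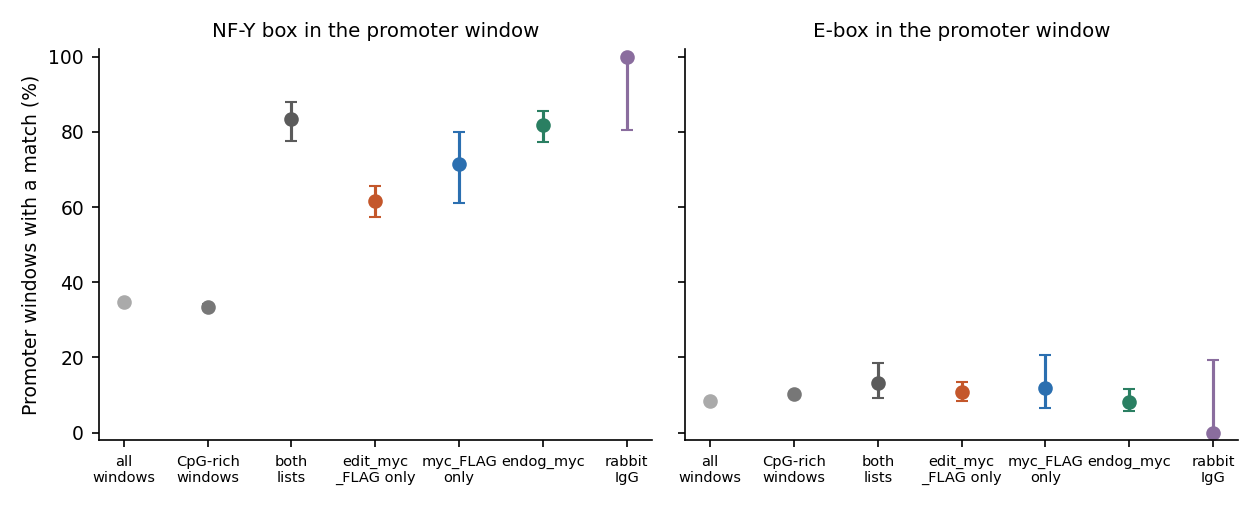
Share of 300-base promoter windows (percent, vertical axis) that hold the NF-Y box (left) and the E-box (right) for all windows, CpG-rich windows, and genes in both FLAG lists, in each alone, in endog_myc and in rabbit IgG, with 95% Wilson intervals as bars; mouse IgG, with 3 windows, is not drawn. The NF-Y box reaches 83.4% of genes in both lists against 34.6% of all windows and 33.4% of CpG-rich ones. The E-box reaches 13.1% (9.07 to 18.5) against 8.34% and 10.2%, the last of which lies inside that interval.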

How the data were processed

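CUT&RUN was run in 11 HEK293T libraries. The submitters' processing notes name the build hg38 and, without roles, HOMER 4.10, MACS3 3.0.0b1, SAMtools 1.15 and Bowtie2 2.4.5. Options, the control of the peak calls, and whether reads or calls were merged: not given in the sources used here. Each deposited list holds a fold enrichment and a −log10 q per region from the authors' caller, and a deposited score and −log10 p, which were not used. Fold and −log10 q were used to describe, rank or filter regions within a list; folds of 2 lists stand side by side as a description, since depth and the caller's background may differ. Depth is unknown.

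Overlaps were computed with Python 3.11.15, NumPy 2.4.6 and pandas 2.3.3, and the overlap calls were checked on simulated regions. Figures used matplotlib 3.10.9. Groups came from the labels. Gene starts came from RefSeq (GRCh38.p14) for 15812 of 19974 protein-coding genes; for the other 4162 either end of the gene span served. Positions are 1-based. Promoter windows were searched for 10 motifs. Genes were named by fold rank within each group, as each paragraph states, and members of the 16 gene lists wherever they had a region. Members and lists were chosen with earlier results of these data known. Alternatives changed the overlap rule, IgG filter, list length, distances, ranking and motif.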

Additional observations from a re-analysis of the deposited data

How the results depend on the processing

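Of 99 values recomputed for 19 results, 44 stayed within the interval or 1.5 times the reported count and 55 moved. The overlap, as a share of edit_myc_FLAG and of myc_FLAG, was 22.3% and 46.6% when summits had to lie within 200 bp, 34.8% and 62.3% without an IgG filter, 27.6% and 55.3% with the mouse IgG list only, 34.2% and 48.0% at a −log10 q of at least 5, and 20.6% and 57.8% without the gene-free stretches. It was 47.9% of myc_FLAG when at least 50% of the shorter region had to overlap. At equal length it was 44.2% and 44.3% without an IgG filter, 36.9% and 37.0% with mouse IgG only, and 40.7% and 40.6% when ranked by −log10 q. The share of shared regions at gene starts was 48.5% at equal length, 27.1% without an IgG filter, 58.1% without the stretches and 64.3% without them at equal length. For edit_myc_FLAG alone it was 50.8% at equal length, 41.0% within 500 bp, 41.3% with either end of the gene, and 48.6% and 57.7% without the stretches. For myc_FLAG alone the last pair was 38.7% and 42.9%. The gene-poor share at 50000 bp was 32.8% for shared and 11.3% for edit_myc_FLAG alone. Without the stretches it was 3.69%, 0.873% and 4.15% for shared, edit_myc_FLAG alone and myc_FLAG alone, and at equal length 2.34%, 0.583% and 4.66%, as the stretches hold most gene-poor regions. The endog_myc overlap of the same 3 was 71.8%, 17.2% and 38.1% at equal length, 81.0%, 30.8% and 49.8% at a −log10 q of at least 5, and 73.1%, 19.0% and 35.0% without the stretches at equal length. It was 78.8% for shared without an IgG filter and 23.5% for myc_FLAG alone without the stretches. Genes in edit_myc_FLAG only and in myc_FLAG only numbered 319 and 159 at equal length, where the first list holds fewer regions. Without the stretches at equal length, genes in both lists numbered 131, and those in edit_myc_FLAG only and myc_FLAG only 230 and 187. Promoters with CACGTG or CACGCG were 32.2%, 28.7% and 31.0% for both, edit_myc_FLAG only and myc_FLAG only, since more letters were searched. The order of the 3 groups in endog_myc overlap was the same under each of these settings that gave all 3 values. Settings without the stretches were added after the data were seen. For the other moves the cause was not tested. No paired analysis was possible because each group has 1 merged list and no list for single replicates. Leaving out a replicate was not possible for the same reason. The lists hold no depth, so a region missing from a list may be one that was not detectable at its depth.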

Other observations

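Many regions carried exactly the same fold and −log10 q as another region of their list. In edit_myc_FLAG this held for 902 of 1675 regions (53.9%, 51.5 to 56.2), and in myc_FLAG for 167 of 801 (20.8%, 18.2 to 23.8). Within edit_myc_FLAG it held for 783 of the 1260 regions in that list alone (62.1%) and for 119 of the 415 shared (28.7%). Within myc_FLAG it held for 97 of the 388 in that list alone (25%) and for 70 of the 413 shared (16.9%).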
